A study of Homo sapiens with 15 samples.

Results

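The genes described here are 10 genes known to be induced by androgen in prostate cells, apart from those that serve as ERG fusion partners: KLK4, FKBP5, CAMKK2, ABCC4, ACP3, ELL2, HERC3, ABHD2, MAF and PMEPA1. They were taken by name, as every probe whose symbol in the platform's annotation is one of them, which gave 19 probes among 47322 on the array and 10 genes among 20046. After a filter on dim probes (a detection p-value under 0.05 on at least 3 of the 15 arrays), 16 of the 19 probes and all 10 genes remained, of 12744 genes tested in all. RNA came from VCaP cells, an established line of human prostate cancer cells in which androgen-driven TMPRSS2 is fused to ERG, and was hybridised to Illumina HT-12 v4 BeadChips. The 5 groups had 3 arrays each. They were ERG siRNA 1 and ERG siRNA 2, both 72 h after transfection, a non-targeting (NT) siRNA, WP1130 for 24 h, and DMSO. WP1130 is a small molecule known as a deubiquitinase inhibitor, and DMSO is its solvent. All cells were kept in serum-containing DMEM, and the labels give no added androgen, no dose of WP1130 and no time for either control group. The labels number replicates but do not say that they were separate cultures, so p-values here cover array-to-array spread alone, and that spread can be technical.

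The androgen receptor is a nuclear receptor that androgen releases from a chaperone complex built around HSP90. It then binds DNA as a dimer at sites made of inverted half-sites, mostly in enhancers far from the genes, and recruits co-activators. In luminal prostate cells its targets include secreted proteases and phosphatases, transporters, metabolic and signalling enzymes, and transcription factors. ERG is an ETS-family factor, placed under androgen control by the fusion to TMPRSS2, and ETS factors bind sites with a GGAA core.

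Promoters of the members are shown because both kinds of factor have short recognition motifs that can be read in them. RefSeq promoters (GRCh38.p14, 250 bases before to 50 bases after a start) were on hand for 9 of the 10 genes, 16 in all. The androgen receptor half-site AGAACA, on either strand, was in 3 of the 16 promoters, belonging to FKBP5 and PMEPA1, while 14.8% of 35116 human promoters of the same length hold it. The ETS motif GGAAGT, on either strand, was in 3 of the 16 promoters, 1 each of KLK4, HERC3 and PMEPA1, while 22.8% of all promoters hold it. An inverted repeat of AGAACA with 3 bases between the half-sites was in 0 of the 16 and in 1 of the 35116. The AGAACA and GGAAGT motifs share no bases in these windows. The 3 promoters below were chosen to show each motif, in capitals, in genes that rose with ERG siRNA (KLK4 and FKBP5) and in one that did not pass that test (PMEPA1), TGTTCT being AGAACA on the other strand. A match is a string of letters, and these data hold no binding measurement.
KLK4, promoter at chr19:50911346-50911645, minus strand: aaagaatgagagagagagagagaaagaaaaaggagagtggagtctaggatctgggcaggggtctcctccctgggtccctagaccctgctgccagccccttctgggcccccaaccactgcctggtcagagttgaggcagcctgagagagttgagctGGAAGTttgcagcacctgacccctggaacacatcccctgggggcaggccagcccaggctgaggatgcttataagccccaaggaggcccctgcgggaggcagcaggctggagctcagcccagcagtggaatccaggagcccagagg
FKBP5, promoter at chr6:35728534-35728833, minus strand: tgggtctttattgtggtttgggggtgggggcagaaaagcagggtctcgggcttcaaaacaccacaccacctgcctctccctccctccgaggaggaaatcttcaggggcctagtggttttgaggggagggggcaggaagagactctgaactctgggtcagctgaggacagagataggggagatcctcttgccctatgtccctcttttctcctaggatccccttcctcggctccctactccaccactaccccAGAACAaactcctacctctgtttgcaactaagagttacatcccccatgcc
PMEPA1, promoter at chr20:57710528-57710827, minus strand: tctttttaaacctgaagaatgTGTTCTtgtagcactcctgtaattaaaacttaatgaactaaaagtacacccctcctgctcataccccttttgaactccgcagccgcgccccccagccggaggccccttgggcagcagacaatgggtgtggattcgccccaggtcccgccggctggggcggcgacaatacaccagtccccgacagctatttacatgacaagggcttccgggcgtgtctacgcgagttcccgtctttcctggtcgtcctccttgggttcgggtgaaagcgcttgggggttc

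Intensities were background-corrected, quantile-normalised and put on a log2 scale, and a gene with several probes is given by the probe with the highest mean. A change is a difference of log2 intensities from one limma model over all 5 groups, called where its p-value, adjusted over the 12744 genes by Benjamini-Hochberg, is under 0.05. ERG is the gene the siRNAs target. Its probe averaged 5.30 ± 0.41 with ERG siRNA 1 and 5.22 ± 0.39 with ERG siRNA 2, against 6.0 ± 0.15 with NT siRNA (SD, n = 3 each), a change of -0.74 ± 0.16 (SE, limma adjusted p = 0.00383). It averaged 5.76 ± 0.09 with WP1130 and 6.30 ± 0.05 with DMSO, a change of -0.54 ± 0.18 (limma adjusted p = 0.0203). The probe is dim, being detected on 14 of 15 arrays, and no annotation used here says which ERG transcripts it reads. Of 3 ERG probes on the array, it was the only 1 that passed the filter. Mean probe intensity per array before normalisation was 392 to 444 for ERG siRNA 1 and ERG siRNA 2 together, 407 to 459 for NT siRNA, 305 to 315 for WP1130 and 395 to 432 for DMSO, so the WP1130 arrays were dimmer than all others. The detected markers of the labelled line included TMPRSS2, KLK2, HOXB13, FOXA1, KRT8, KRT18 and EPCAM on 15 arrays, whereas KLK3, a defining androgen target of prostate cells, was detected on 1.

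With ERG siRNA, 7 of the 10 androgen target genes were higher than with NT siRNA and 0 were lower, where 10.7% of all tested genes were called higher and 9.58% lower. The risers were KLK4, ABCC4, ABHD2, FKBP5, CAMKK2, ELL2 and MAF, with changes of 0.29 to 0.57 on the log2 scale in the mean of both siRNAs. ACP3, HERC3 and PMEPA1 had positive differences that did not pass the test. With WP1130, 7 of the 10 were lower than with DMSO and 3 were higher, where 37.1% of all tested genes were called lower and 21.9% higher. The genes that fell were KLK4, ACP3, ABCC4, FKBP5, CAMKK2, HERC3 and PMEPA1, and those that rose were ELL2, ABHD2 and MAF. Across the members the median change was 0.35 with ERG siRNA and -0.62 with WP1130, beside medians over all tested genes of -0.00 and -0.12. The members were chosen with earlier results of these data known, so these counts beside the shares are a description only.

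**Figure D1:**
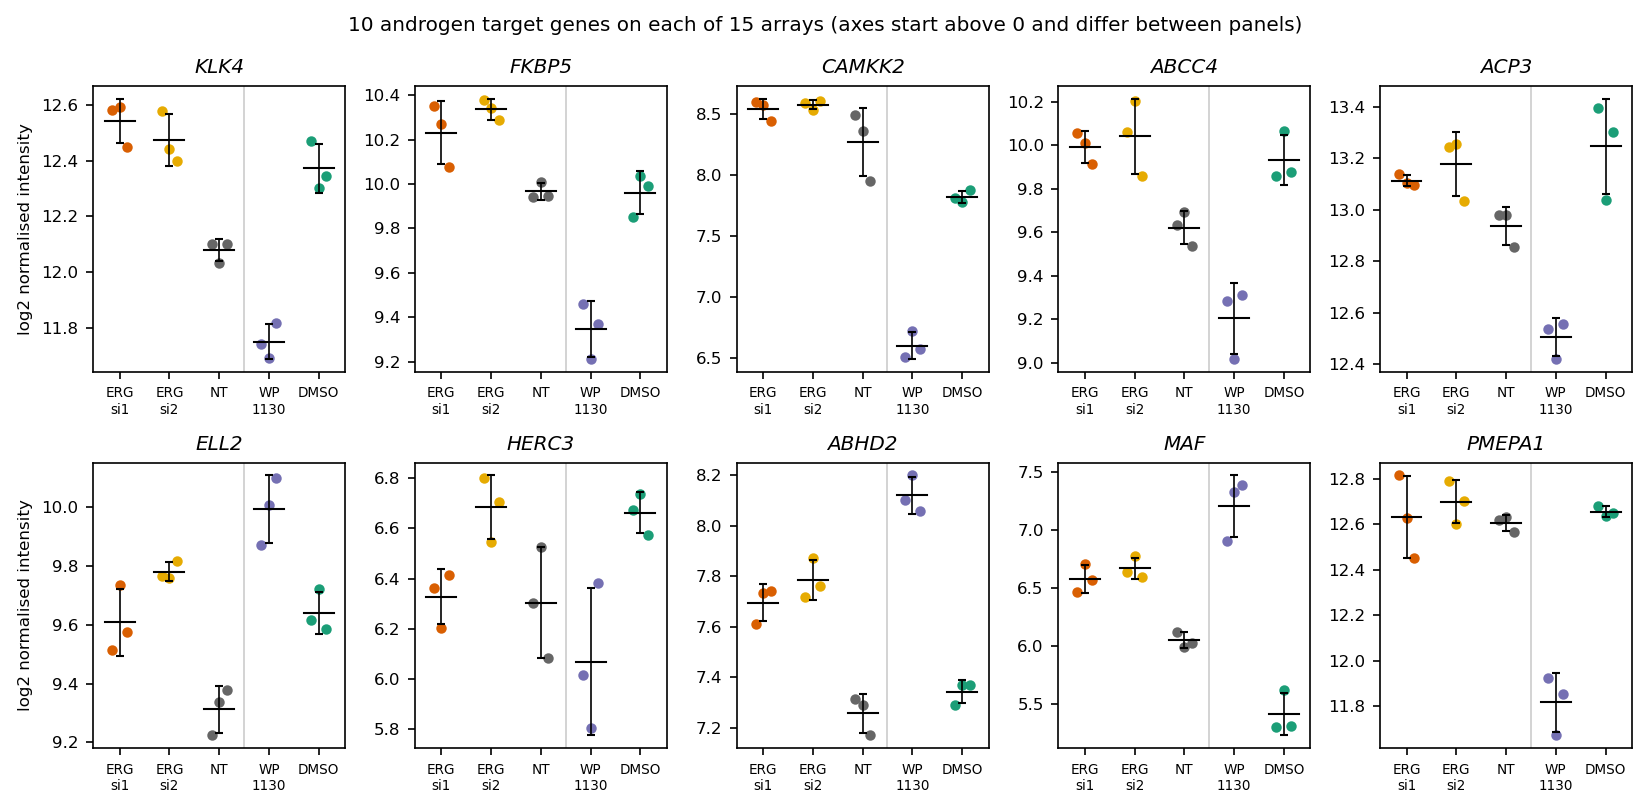
Normalised log2 intensity (vertical axis) of each of the 10 genes on each of the 15 arrays, with groups along the horizontal axis, a point for each array, and lines for each group's mean ± SD (n = 3); the axes do not start at 0 and differ between panels. MAF is highest with WP1130 (6.91 to 7.39) and lowest with DMSO (5.30 to 5.62), whereas CAMKK2 is lowest with WP1130 (6.51 to 6.72).

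Among the secreted luminal products, KLK4 encodes a kallikrein serine protease. Its log2 intensity was 12.58, 12.59 and 12.45 with ERG siRNA 1 and 12.58, 12.44 and 12.40 with ERG siRNA 2, against 12.10, 12.03 and 12.10 with NT siRNA. Every ERG siRNA array lay above every NT array. The change was 0.43 ± 0.06 (SE, limma adjusted p = 0.000211), or 1.35-fold. With WP1130 the values were 11.74, 11.69 and 11.82, against 12.47, 12.30 and 12.35 with DMSO. The WP1130 arrays were all below the DMSO arrays, at 65.0% of the DMSO level (95% confidence interval 58.2% to 72.5%, limma adjusted p = 3.68e-06). That level and its interval hold for quantile normalisation: the log2 change was -0.62 there, -1.01 with median scaling and -1.21 without scaling. In the order of group means both ERG siRNAs stood highest, DMSO overlapped both, and NT siRNA and then WP1130 lay below, each apart.

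ACP3 encodes prostatic acid phosphatase, a secreted and membrane-bound enzyme. Its values were 13.14, 13.10 and 13.10 with ERG siRNA 1 and 13.24, 13.26 and 13.03 with ERG siRNA 2, against 12.98, 12.98 and 12.85 with NT siRNA. The arrays did not overlap, but the difference of 0.21 ± 0.08 did not pass the test over all genes (SE, limma adjusted p = 0.0814). Without ERG siRNA 2 replicate 3 it was 0.24 and passed (limma adjusted p = 0.0454), as it did with no background correction (0.21, limma adjusted p = 0.0175) and with a variance trend and robust moderation (0.21, limma adjusted p = 0.0105). With WP1130 ACP3 fell to 12.54, 12.42 and 12.56, against 13.40, 13.04 and 13.30 with DMSO. That was 59.8% of the DMSO level (95% confidence interval 52.2% to 68.5%, limma adjusted p = 5.43e-06), with no overlap. DMSO and both ERG siRNAs overlapped at the top of the order of groups.

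ABCC4 encodes an efflux transporter of cyclic nucleotides and other organic anions. It had 10.06, 10.01 and 9.91 with ERG siRNA 1 and 10.06, 10.20 and 9.86 with ERG siRNA 2, against 9.63, 9.69 and 9.54 with NT siRNA. The ERG siRNA arrays were all higher, and the change was 0.39 ± 0.09 (SE, limma adjusted p = 0.0046). With WP1130 it fell to 9.28, 9.02 and 9.31, against 9.86, 10.07 and 9.88 with DMSO. The groups did not overlap, and the WP1130 level was 60.4% of the DMSO level (95% confidence interval 52.0% to 70.1%, limma adjusted p = 1.67e-05). DMSO and the ERG siRNAs overlapped here too.

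ABHD2 encodes an alpha/beta hydrolase that acts as a lipase. Its values were 7.61, 7.74 and 7.74 with ERG siRNA 1 and 7.72, 7.87 and 7.76 with ERG siRNA 2, against 7.31, 7.29 and 7.17 with NT siRNA. It rose on every ERG siRNA array relative to every NT array, by 0.48 ± 0.06 (SE, limma adjusted p = 5.53e-05). With WP1130 the values were 8.10, 8.20 and 8.06, against 7.29, 7.37 and 7.37 with DMSO. This was 1.72-fold higher after quantile normalisation (limma adjusted p = 2.49e-07). The call ended with median scaling (0.20, limma adjusted p = 0.112) and without scaling between arrays (0.0065, limma adjusted p = 0.963), and the raw means were 264.7 with WP1130 and 272.6 with DMSO. In the order of groups after quantile normalisation WP1130 stood first, the ERG siRNAs overlapped next, and DMSO and NT siRNA overlapped at the bottom. By raw mean WP1130 lay below ERG siRNA 1 (324.1) and ERG siRNA 2 (335.1).

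FKBP5 encodes FKBP51, a peptidyl-prolyl isomerase and HSP90 co-chaperone of steroid receptors. It had 10.35, 10.27 and 10.07 with ERG siRNA 1 and 10.38, 10.34 and 10.29 with ERG siRNA 2, against 9.94, 10.01 and 9.95 with NT siRNA. The lowest ERG siRNA array lay just above the highest NT array. The change was 0.32 ± 0.07 (SE, limma adjusted p = 0.00664), and without scaling between arrays a change of 0.31 was not called (limma adjusted p = 0.0909). With WP1130 FKBP5 fell to 9.46, 9.21 and 9.37, against 9.85, 10.04 and 9.99 with DMSO. It was at 65.4% of the DMSO level (95% confidence interval 57.6% to 74.2%, limma adjusted p = 1.84e-05), and the groups did not overlap. The log2 change of -0.61 became -1.21 with median scaling and -1.40 without scaling. NT siRNA and DMSO overlapped for this gene.

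CAMKK2 encodes a calmodulin-dependent kinase that activates AMPK. Its values were 8.60, 8.57 and 8.45 with ERG siRNA 1 and 8.59, 8.53 and 8.60 with ERG siRNA 2, against 8.49, 8.36 and 7.95 with NT siRNA. The groups overlapped, and 1 NT array stood well below the other two. The change of 0.29 ± 0.09 (SE, limma adjusted p = 0.0408) fell to 0.13 without NT siRNA replicate 3 (limma adjusted p = 0.274), and leaving out any of 7 of the 9 arrays in turn ended the call. With WP1130 CAMKK2 had 6.51, 6.72 and 6.57, against 7.81, 7.78 and 7.88 with DMSO. Its fall to 43.0% of the DMSO level (95% confidence interval 36.6% to 50.5%, limma adjusted p = 1.59e-07) was the largest among the 10 genes, except with no background correction, where CAMKK2 fell by 0.74 and PMEPA1 by 0.82. The order of groups was ERG siRNAs and NT siRNA at the top, then DMSO, then WP1130.

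PMEPA1 encodes a membrane protein that recruits NEDD4-type ubiquitin ligases and limits TGF-beta signalling. It had 12.82, 12.63 and 12.45 with ERG siRNA 1 and 12.79, 12.60 and 12.70 with ERG siRNA 2, against 12.62, 12.63 and 12.57 with NT siRNA. These overlapped, and the difference was 0.06 ± 0.08 (SE, limma adjusted p = 0.658), with a 95% confidence interval of -0.11 to 0.23. With WP1130 PMEPA1 fell to 11.93, 11.67 and 11.85, against 12.68, 12.64 and 12.65 with DMSO. The WP1130 level was 55.9% of the DMSO level (95% confidence interval 48.8% to 64.0%, limma adjusted p = 1.42e-06), without overlap. The means of the other 4 groups lay between 12.61 and 12.70.

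HERC3 encodes a HECT-type ubiquitin ligase. Its probe was dim, with raw intensities of 127 to 233. It had 6.36, 6.20 and 6.41 with ERG siRNA 1 and 6.80, 6.55 and 6.70 with ERG siRNA 2, against 6.30, 6.53 and 6.08 with NT siRNA. ERG siRNA 1 overlapped NT siRNA and ERG siRNA 2 lay above it, and the mean difference of 0.20 ± 0.12 did not pass (SE, limma adjusted p = 0.258). With WP1130 the values were 6.02, 5.80 and 6.38, against 6.68, 6.74 and 6.57 with DMSO. HERC3 fell by 0.59 ± 0.13 (SE, limma adjusted p = 0.00137), and its groups did not overlap. ERG siRNA 2 and DMSO overlapped at the top of the order, and the other 3 groups overlapped below.

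ELL2 encodes an elongation factor of RNA polymerase II. It had 9.51, 9.73 and 9.58 with ERG siRNA 1 and 9.77, 9.76 and 9.82 with ERG siRNA 2, against 9.22, 9.34 and 9.38 with NT siRNA. The ERG siRNA arrays were all higher, by 0.38 ± 0.07 (SE, limma adjusted p = 0.00111). With WP1130 the values were 9.87, 10.01 and 10.10, against 9.61, 9.72 and 9.59 with DMSO, a change of 0.35 ± 0.08 (SE, limma adjusted p = 0.00148). Its direction turned with the scaling of the arrays: ELL2 was -0.22 with median scaling (limma adjusted p = 0.0919) and -0.41 without scaling (limma adjusted p = 0.00493). Its raw mean was 750.3 with WP1130 and 975.5 with DMSO. After quantile normalisation the order of groups was WP1130, then ERG siRNA 2, then DMSO and ERG siRNA 1, which overlapped, and NT siRNA last.

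MAF encodes a basic leucine zipper transcription factor. Its probe was dim, with raw intensities of 132 to 218. It had 6.46, 6.70 and 6.57 with ERG siRNA 1 and 6.63, 6.77 and 6.60 with ERG siRNA 2, against 6.12, 6.0 and 6.03 with NT siRNA. All ERG siRNA arrays were above all NT arrays, and the change was 0.57 ± 0.10 (SE, limma adjusted p = 0.00107), or 1.49-fold. With WP1130 MAF rose to 6.91, 7.33 and 7.39, against 5.30, 5.62 and 5.31 with DMSO. This was 3.48-fold (95% confidence interval 291% to 415% of DMSO, limma adjusted p = 5.6e-09), the largest rise among the 10 genes, and its direction held under every scaling tried. Its size moved with the handling of background: the log2 change with WP1130 was 0.83 with no background correction and 2.34 on the authors' processed values, against 1.80 here, and with ERG siRNA it was 0.27 and 0.72, against 0.57. From the top, the order of groups after quantile normalisation was WP1130, then the overlapping ERG siRNAs, then NT siRNA, then DMSO. The raw mean with WP1130 was 185.7, below 200.2 with ERG siRNA 1 and 205.3 with ERG siRNA 2.

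**Figure D2:**
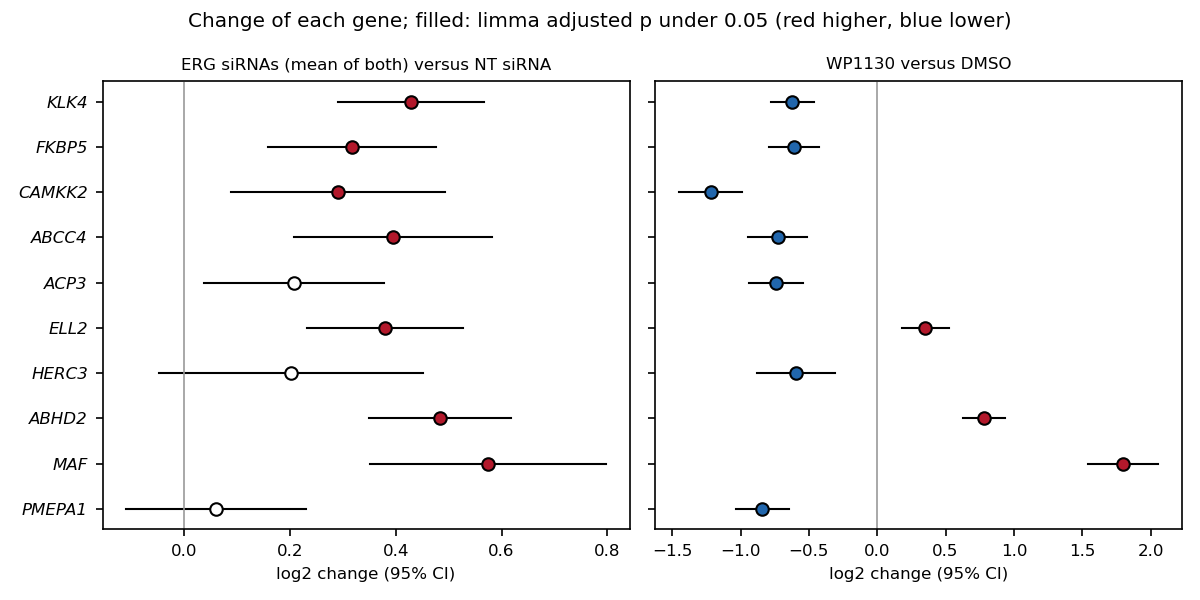
Log2 change of each of the 10 genes (points) with its 95% confidence interval (lines), on the left for ERG siRNAs over NT siRNA and on the right for WP1130 over DMSO. Red marks genes called higher, blue genes called lower and open points genes that did not pass; all 10 lie right of 0 on the left, and 7 lie left of 0 on the right.

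VCaP RNA is bulk RNA, in which fewer cells of a type and less RNA per cell cannot be told apart. The summed normalised intensity of the 8 measured markers of the line, of 11 listed, was 27322 to 31389 with the ERG siRNAs, 23510 to 24441 with NT siRNA, 20581 to 20821 with WP1130 and 26046 to 27078 with DMSO. The sum moved in the same directions as most members. Its list holds ERG, the siRNA target, and TMPRSS2, KLK2 and KRT8, also listed as androgen-responsive, so it is not separate from androgen targets. With ERG siRNA, 5 of the 8 were called higher and 1 lower, where 10.7% and 9.58% of all tested genes were. With WP1130, 2 were called higher, KRT8 by 1.12, and 5 lower, where 21.9% and 37.1% of all tested genes were. Of the fibroblast markers 4 of 7 were measured, led by LUM, and their sum was 613 to 701 with the ERG siRNAs, 436 to 499 with NT siRNA, 498 to 543 with WP1130 and 822 to 838 with DMSO. COL1A2, COL3A1 and PDGFRB were detected on 0 arrays. Of the blood cell markers 3 of 7 were measured, and their sum was 408 to 505 with the ERG siRNAs, 529 to 585 with NT siRNA, 1020 to 1129 with WP1130 and 431 to 446 with DMSO. Those measured were CD14 and CD68, detected on 15 arrays each, and LYZ, detected on 9, and CD14 (0.93 ± 0.07) and CD68 (1.71 ± 0.10, SE) rose with WP1130, while CD14 fell by 0.49 ± 0.06 (SE) with ERG siRNA. PTPRC, the leukocyte common antigen, and CD3E, of T cells, were detected on 0 arrays. The part of these lists and of the dimmer WP1130 arrays in the members' changes was not tested.

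The 2 siRNAs were also set against NT siRNA one by one, which share the same NT arrays. With ERG siRNA 1, 5 members were called higher (background 6.75%) and 0 lower (background 6.25%): KLK4, ABCC4, ELL2, ABHD2 and MAF. With ERG siRNA 2, 6 were called higher (background 10%) and 0 lower (background 8.59%), namely those 5 and FKBP5. KLK4 changed by 0.46 with ERG siRNA 1 and by 0.39 with ERG siRNA 2, and MAF by 0.53 and 0.62 in the same order. FKBP5 missed the threshold with ERG siRNA 1 (0.26, limma adjusted p = 0.0553), and CAMKK2 missed it with both (0.27 and 0.31, limma adjusted p = 0.121 and 0.0622). With ERG siRNA 1, single arrays decided several calls. ABCC4 lost its call without replicate 1 or 2 of ERG siRNA 1 or replicate 1 or 3 of NT siRNA (0.33 to 0.38), and ELL2 without replicate 2 of ERG siRNA 1 or replicate 1 or 2 of NT siRNA (0.23 to 0.31). FKBP5 gained one without replicate 3 of ERG siRNA 1 (0.34), CAMKK2 gained one with each siRNA without NT siRNA replicate 1 (0.38 and 0.42), and with ERG siRNA 2 HERC3 gained one without NT siRNA replicate 2 (0.49) and ACP3 without ERG siRNA 2 replicate 3 (0.31). Set directly against ERG siRNA 1, ERG siRNA 2 gave 0 called members by limma, where 0.118% of all genes were called. HERC3 had the largest such difference, 0.36 (limma adjusted p = 0.481).

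Whether WP1130 and ERG siRNA acted differently on each gene was tested as the WP1130 change minus the ERG siRNA change, which uses separate controls. It was called for 9 of the 10 members, 7 lower and 2 higher, where 31% and 19.8% of all genes were called in those directions. These counts and shares hold for quantile normalisation. The shares were 58.2% and 10.3% with median scaling, and 66.7% and 7.93% without scaling. The members called lower were KLK4 (-1.05 ± 0.10), FKBP5 (-0.93 ± 0.11), CAMKK2 (-1.51 ± 0.14), ABCC4 (-1.12 ± 0.13), ACP3 (-0.95 ± 0.12), HERC3 (-0.80 ± 0.18) and PMEPA1 (-0.90 ± 0.12, all SE). KLK4, FKBP5, CAMKK2 and ABCC4 were each called higher with ERG siRNA and lower with WP1130. MAF rose more with WP1130 (1.22 ± 0.16, limma adjusted p = 1.38e-05). ABHD2 also rose more under quantile normalisation (0.29 ± 0.10, limma adjusted p = 0.0182), but its difference was -0.35 with median scaling and -0.51 without scaling, and its call was lost without WP1130 replicate 2 (0.26) and with the mean of its probes (0.23). For ELL2 the difference was -0.03 ± 0.11 (SE, limma adjusted p = 0.841), and it became -0.64 with median scaling and -0.81 without scaling. The ERG siRNA arrays were taken at 72 h and the WP1130 arrays at 24 h, so agent and time cannot be told apart in this difference.

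**Figure D3:**
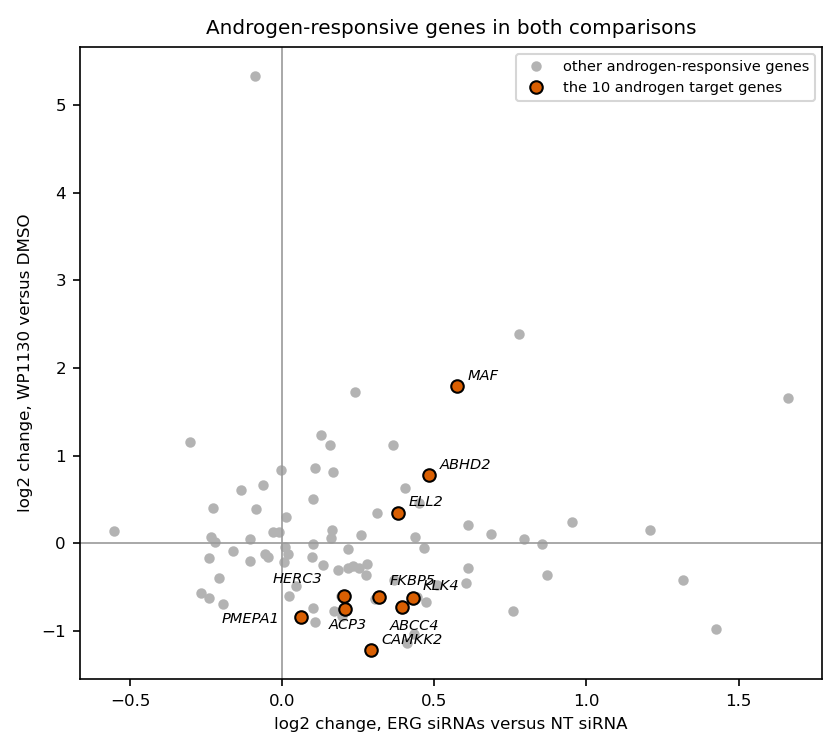
Log2 change with ERG siRNAs over NT siRNA (horizontal axis) and with WP1130 over DMSO (vertical axis) for the 10 genes (orange, named) and the 79 other measured androgen-responsive genes (grey). MAF, ABHD2 and ELL2 lie above 0 on both axes, and the other 7 lie right of 0 and below it.

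The controls themselves differed in these genes. In DMSO over NT siRNA, 4 members were called higher (background 13.1%) and 2 lower (background 11.6%). KLK4 (0.29 ± 0.07), ABCC4 (0.31 ± 0.10), ACP3 (0.31 ± 0.09) and ELL2 (0.33 ± 0.08) were higher with DMSO. CAMKK2 (-0.45 ± 0.11, SE, limma adjusted p = 0.00758) and MAF (-0.64 ± 0.12, SE, limma adjusted p = 0.00122) were lower with DMSO. FKBP5 (-0.01 ± 0.09), ABHD2 (0.09 ± 0.07), PMEPA1 (0.05 ± 0.09) and HERC3 (0.36 ± 0.13, all SE) were not called. ABCC4 lost its call without NT siRNA replicate 1 or 3 or DMSO replicate 2 or 3 (0.25 to 0.34), ACP3 lost it without NT siRNA replicate 3 or DMSO replicate 1 or 3 (0.23 to 0.28), and HERC3 gained one without NT siRNA replicate 2 (0.47). Transfection, solvent and time of harvest cannot be told apart between the controls, so changes are given against each agent's own control. An order of all 5 groups is a description of levels after quantile normalisation.

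Further probes read several of the genes. ABHD2's second detected probe (ILMN_2403446) changed by 0.63 with ERG siRNA and 0.80 with WP1130, like the main one (ILMN_1723662). ABCC4's second probe (ILMN_2194009) changed by 0.30 (limma adjusted p = 0.00737) and -0.36 (limma adjusted p = 0.0014). CAMKK2's second probe (ILMN_2367638), annotated to another transcript, had a difference of 0.03 with ERG siRNA (limma adjusted p = 0.92) and fell by 0.75 with WP1130 (limma adjusted p = 0.000998). The rise of CAMKK2 with ERG siRNA therefore stood on 1 of its 2 probes. Beside PMEPA1's main probe (ILMN_1734276), ILMN_1657823 and ILMN_2309156 fell by 0.92 and 1.07 with WP1130. The remaining PMEPA1 probe (ILMN_1675858), detected on 6 arrays, had -0.13 (limma adjusted p = 0.411), and none of the 4 was called with ERG siRNA. The 3 probes that did not pass the filter, 2 of ABHD2 and 1 of MAF, were detected on 1, 0 and 0 arrays. KLK4 (ILMN_1792363), FKBP5 (ILMN_1778444), ACP3 (ILMN_1758323), ELL2 (ILMN_1655930) and HERC3 (ILMN_1741032) had 1 probe each, and MAF was read by ILMN_1719543. Probe p-values were adjusted over 17078 probes.

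**Figure D4:**
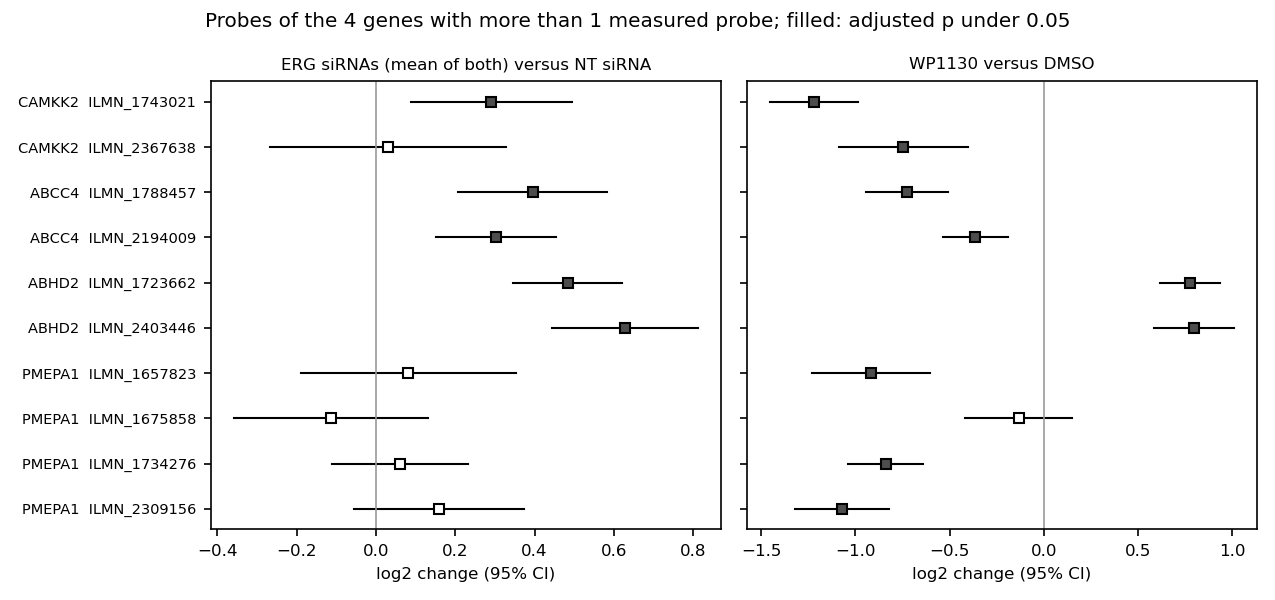
Log2 change (horizontal axis) with its 95% confidence interval for each measured probe of the 4 genes with more than 1, on the left for ERG siRNAs over NT siRNA and on the right for WP1130 over DMSO; filled squares passed the test. The CAMKK2 probes read 0.29 and 0.03 with ERG siRNA, and both fall with WP1130 (-1.22 and -0.75).

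Quantile normalisation gives all arrays the same distribution, and other scalings moved the balance of higher and lower calls with WP1130. The median change of all genes with WP1130 was -0.12 after quantile normalisation, -0.46 with median scaling and -0.65 without scaling. Of the genes called with WP1130, 37.1% were higher after quantile normalisation, 15.7% with median scaling and 10.6% without scaling; of those called with ERG siRNA, 52.7%, 67.8% and 61.1% were higher. Members called with WP1130 were 3 higher and 7 lower at first, 1 higher and 7 lower with median scaling, and 1 higher and 8 lower without scaling. The 7 genes lower at first fell further with median scaling and without scaling. In that order, CAMKK2 changed by -1.67 and -1.86, ABCC4 by -1.33 and -1.52, and PMEPA1 by -1.23 and -1.42. ACP3 changed by -1.07 and -1.26, and HERC3 by -0.92 and -1.11. The levels relative to DMSO and their confidence intervals given above hold for quantile normalisation. Over all tested genes, 37.1% were called lower at first, 61.6% with median scaling and 73.1% without scaling, so the share of members called lower was near the background with median scaling and without scaling. Relative to the median of all genes, MAF with WP1130 was 1.92 in the first setting and 1.80 in each of the others, ABHD2 was 0.90, 0.66 and 0.66, and ELL2 was 0.47, 0.24 and 0.24. All 3 stood above the median gene under each of these scalings. Of the 3, MAF alone was called higher under all of them.

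**Figure D5:**
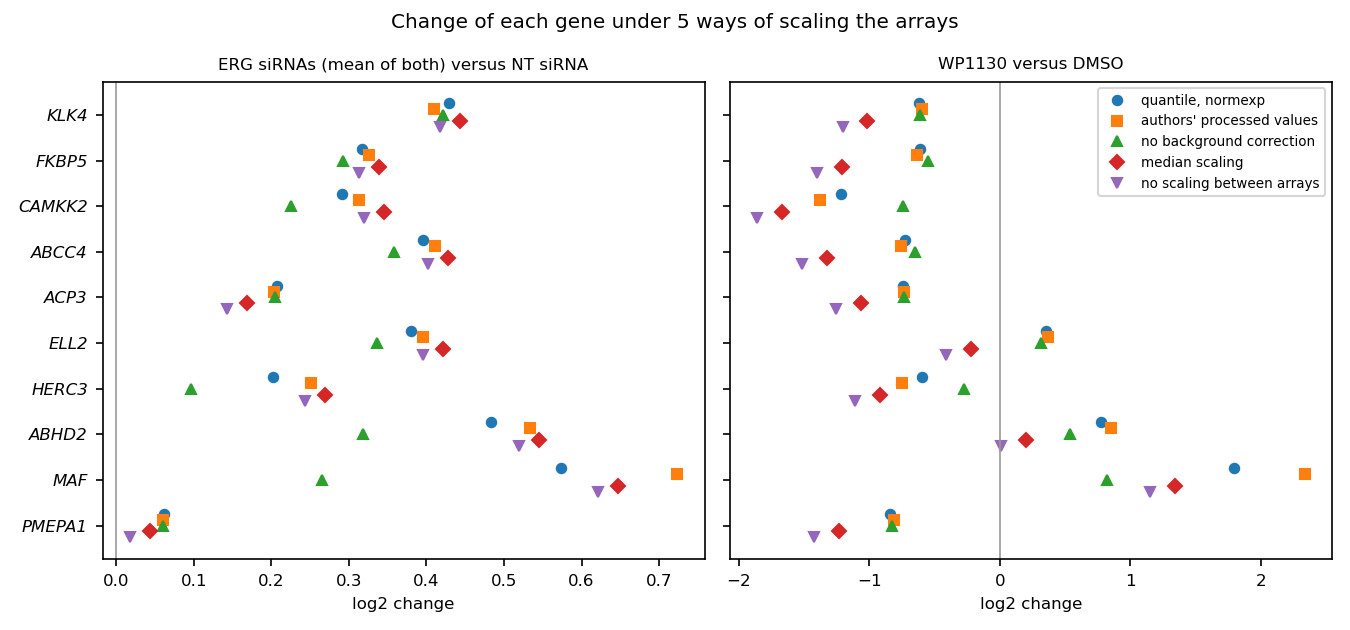
Log2 change (horizontal axis) of each of the 10 genes (rows), with ERG siRNAs over NT siRNA on the left and WP1130 over DMSO on the right. Markers stand for 5 ways of making the values: quantile normalisation after normexp, the authors' processed values, quantile normalisation with no background correction, median scaling and no scaling. With WP1130, ELL2 lies above 0 under quantile normalisation (0.35) and below 0 with median scaling (-0.22) and without scaling (-0.41), and MAF stays above 0.

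Of 94 other androgen-responsive genes listed, 79 were measured, and 31 rose and 7 fell with ERG siRNA, with a median of 0.17, where 10.7% of all tested genes were called higher and 9.58% lower. ADAMTS1, a metalloprotease, rose by 1.66 ± 0.09, SLC45A3, a prostate membrane transporter, by 1.43 ± 0.07, and TMPRSS2, a membrane serine protease, by 1.32 ± 0.07 (SE). UAP1, an enzyme of amino-sugar synthesis, changed by -0.55 ± 0.07 (SE). With WP1130, 20 of the 79 rose and 31 fell, with a median of -0.06, near the background of 21.9% and 37.1% of all tested genes. This count moved to 10 and 55 with median scaling, where 11.5% of all tested genes were called higher and 61.6% lower. SGK1, a serum- and glucocorticoid-inducible kinase, rose by 5.33 ± 0.08, and SLC45A3 changed by -0.97 ± 0.08 and BMPR1B, a BMP receptor, by -1.14 ± 0.09 (SE). The members' medians of 0.35 and -0.62 stand beside these as a description only.

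Over all tested genes, 10.7% were called higher and 9.58% lower with ERG siRNA, and 21.9% and 37.1% with WP1130. With median scaling the WP1130 shares were 11.5% and 61.6%. The list counts here and in the next paragraph stand beside these shares. Of 22 listed genes of the androgen receptor complex, 17 were measured. With ERG siRNA, 4 rose and 1 fell: the cofactors NRIP1 (0.47 ± 0.08), NCOA2 (0.45 ± 0.09) and CREBBP (0.28 ± 0.07) were among the risers, and FKBP4, the co-chaperone related to FKBP5, fell by 0.24 ± 0.07 (SE). With WP1130, 7 rose and 6 fell, and with median scaling 5 rose and 12 fell. The chaperone genes DNAJA1 (1.48 ± 0.07), HSP90AA1 (1.43 ± 0.07) and STIP1 (1.01 ± 0.09) rose, whereas the pioneer factor FOXA1 (-0.71 ± 0.07) and the chromatin remodeller subunit ARID1A (-0.90 ± 0.08) fell (SE). FKBP5 shares induction by glucocorticoid with a list of which 9 of 10 genes were measured. With ERG siRNA, 3 of these 9 rose and 0 fell, led by TSC22D3 (1.39 ± 0.09), and with WP1130, 7 rose and 1 fell, including SGK1, ERRFI1 (3.18 ± 0.10) and DUSP1 (3.10 ± 0.07, all SE). FKBP5 fell with WP1130 while most of that list rose; with median scaling 5 of the 9 rose and 2 fell.

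PMEPA1 is also known as a TGF-beta target, and 12 of 14 listed TGF-beta and SMAD targets were measured. With ERG siRNA, 2 rose and 1 fell, BAMBI, a pseudoreceptor that limits the pathway, rising by 1.38 ± 0.11 (SE). With WP1130, 10 rose and 0 fell, with 9 and 3 under median scaling, and BAMBI (3.96 ± 0.12), SKIL (2.06 ± 0.11) and ID2 (1.66 ± 0.10) led (SE). PMEPA1 itself fell by 0.84 ± 0.09 (SE). ELL2 works in the super elongation complex, of which 12 other genes out of 13 listed were measured. With ERG siRNA, 1 rose, EAF1 (0.63 ± 0.06, SE), and 0 fell. With WP1130, 5 rose and 2 fell, but 0 rose and 6 fell with median scaling. Of 9 measured AMPK and calmodulin kinase genes around CAMKK2, out of 11 listed, 0 rose and 3 fell with ERG siRNA, CAMK1D by 0.96 ± 0.08 and the AMPK catalytic subunit PRKAA1 by 0.25 ± 0.07 (SE). With median scaling 1 of the 9 fell with ERG siRNA. With WP1130, 1 rose and 4 fell.

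The members' paralogs moved unevenly. Over all tested genes, 10.7% were called higher and 9.58% lower with ERG siRNA, and 21.9% and 37.1% with WP1130. The counts of FKBP genes below were near or under these shares. Of 6 other kallikreins measured, out of 14 listed, KLK12 (1.03 ± 0.10), KLK15 (0.56 ± 0.15) and KLK2 (0.47 ± 0.07) rose with ERG siRNA, as KLK4 did, and 0 fell. With WP1130 KLK2 (-0.67 ± 0.09) and KLK15 (-0.42 ± 0.17) fell like KLK4, whereas KLK6 rose by 5.29 ± 0.10 (SE). Of 5 measured HERC genes, out of 5 listed, HERC5 (1.04 ± 0.07) and HERC6 (0.63 ± 0.10) rose with ERG siRNA while HERC3 did not pass. With WP1130, 2 rose and 2 fell, HERC6 (-0.56 ± 0.12) and HERC1 (-0.54 ± 0.09) being those that fell (SE), and 0 rose and 3 fell with median scaling. Of 5 measured ABCC transporters, out of 10 listed, ABCC3 rose with both, by 0.48 ± 0.11 with ERG siRNA and by 2.29 ± 0.13 with WP1130 (SE), the second against the fall of ABCC4. Of 11 measured FKBP genes, out of 14 listed, 1 rose and 1 fell with ERG siRNA, and 2 rose and 3 fell with WP1130, FKBP14 rising by 1.65 ± 0.14 (SE). Of 15 measured ABHD hydrolases, out of 18 listed, 4 rose and 1 fell with ERG siRNA. With WP1130, 8 of them rose and 4 fell, but 2 rose and 10 fell with median scaling, and ABHD3 rose by 3.80 ± 0.11 (SE). Both measured MAF relatives, out of 6 listed, rose with WP1130, MAFF by 0.99 ± 0.14 and MAFG by 0.58 ± 0.09 (SE), though MAFG was -0.05 without scaling, and neither passed with ERG siRNA. Of 4 measured acid phosphatases, out of 6 listed, ACP2 rose with ERG siRNA (0.36 ± 0.08, SE) and ACP6 fell with WP1130 (-0.26 ± 0.08, SE).

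Over the 15 arrays ELL2, ABHD2 and MAF correlated positively with each other (0.64 to 0.89) and negatively with the other 7 members, which correlated positively among themselves (0.52 to 0.94). The Pearson correlation of log2 intensity was 0.94 between FKBP5 and CAMKK2, 0.93 between KLK4 and ABCC4 and 0.89 between ABHD2 and MAF, while between ABHD2 and PMEPA1 it was -0.72. All arrays share the 5 groups, so these values follow the group means. They were taken after quantile normalisation only. Without scaling, the change with WP1130 was -0.41 for ELL2 and 0.0065 for ABHD2. The gene most like KLK4 among all tested was ENPP5 (0.98), for FKBP5 SLC35E2B (0.98), for CAMKK2 WDR19 (0.99), for ABCC4 ZNF627 (0.96) and for ACP3 FAM117B (0.97). For ELL2 it was DEDD (0.93), for HERC3 RCBTB1 (0.88), for ABHD2 RIPK4 (0.97), for MAF SLC44A4 (0.96) and for PMEPA1 UBE2D4 (0.98). The next most like were GDAP1, TESK2, NREP, PCDHB3, TMEM192, YPEL5, WASHC2C, TUBB3, GPRC5C and NFIB, in the same order of members, with correlations of 0.86 to 0.98. None of these genes was itself a member.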

How the data were processed

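VCaP RNA was measured on Illumina HT-12 v4 arrays. Per the file headers, the deposited non-normalized table gives a linear intensity for each probe and a detection p-value set against control beads. The submitters' processing notes name GenomeStudio, with no version or role. The authors' deposited processed table holds intensity values of 1 shared distribution per array, by a method not given in the sources used here, and served as an alternative. In limma 3.58.1 (R 4.3.3), intensities were background-corrected by normexp from the detection p-values, given an offset of 16, quantile-normalised and log2-transformed. Probes with 1 gene symbol and a detection p-value under 0.05 on at least 3 arrays were kept, which left 12744 genes. A model of 5 group means with 10 residual degrees of freedom gave all comparisons, with Benjamini-Hochberg adjustment. Precision is limited by the number of arrays. The code was tested on simulated data. The members and gene lists were chosen with earlier results of these data known. Genes named are the members, ERG, the 2 most correlated genes per member, and up to 3 genes with the largest rise and fall past the threshold in each list. Alternatives covered background, scaling, filter, probe choice, variance model, samples in the fit, a replicate block and leaving out each array. No source used here gives slides or scan dates. Deviations of same-numbered arrays correlated by -0.06 to 0.14 over 30 pairs, 3 of them over 0.1, and 10 of 15 arrays correlated best with an array of their own number. Since not every pair was over 0.1, replicate numbers were not used as pairs.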

Additional observations from a re-analysis of the deposited data

How the results depend on the processing

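The count of members called with ERG siRNA 1 was 3 with median scaling and 3 without scaling between arrays, against 5. Over all tested genes, 5.81% and 4.13% were called higher in those settings, against 6.75%. Those called lower were 2.90% and 2.51%, against 6.25%. When 1 array was left out, the member count ranged from 3 to 6, while 4.72% to 5.46% of all tested genes were called higher. With ERG siRNA 2 the member count was 3 without scaling, against 6, where 5.57% of all tested genes were called higher, against 10.0%. In DMSO over NT siRNA the member count was 2 without scaling, against 6. There 7.71% of all tested genes were called higher and 6.72% lower, against 13.1% and 11.6%. Totals over all genes without scaling were 1404 against 2580 for the mean of both ERG siRNAs, 846 against 1657 for ERG siRNA 1, 1188 against 2372 for ERG siRNA 2 and 1840 against 3152 for DMSO over NT siRNA. With the replicate block they were 2533 for ERG siRNA and 7522 for WP1130 (7519 without), and no member's call changed in either comparison.

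ELL2 with WP1130 turned to -0.22 with median scaling and -0.41 without scaling, and ABHD2 in the WP1130 minus ERG siRNA difference turned to -0.35 and -0.51. Small differences also changed sign: FKBP5 in DMSO over NT siRNA (0.0687 with median scaling, 0.0267 without scaling, -0.0437 to 0.0491 leaving out 1 array), and, in ERG siRNA 2 over ERG siRNA 1, PMEPA1 (-0.0084, -0.0217, and -0.0223 to 0.159), ACP3 (-0.0122 without scaling), ABCC4 (-0.0406 with the mean of its probes, and -0.0336 to 0.138) and CAMKK2 (-0.0102 to 0.0665). Leaving out 1 array, ELL2 in the WP1130 minus ERG siRNA difference ranged from -0.0821 to 0.0313, and, with ERG siRNA 1, HERC3 from -0.0863 to 0.136 and PMEPA1 from -0.064 to 0.117. CAMKK2 with ERG siRNA was 0.13 to 0.40 leaving out 1 array and lost its call in 7 of 9 such fits, with the mean of its probes (0.16, limma adjusted p = 0.357), on the authors' deposited processed intensities (0.31, limma adjusted p = 0.0594) and in 3 other settings. The cause was not tested.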
